A study of Mus musculus with 8 samples.

Results

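Germ cells that had undergone deletion of Snf5 in the fetal ovary were compared with germ cells that had undergone the same deletion in the fetal testis. The comparison used the 4 Snf5 CKO libraries among the 8 RNA-Seq libraries of the series, 2 from ovaries and 2 from testes, and genes were matched between the sexes by name, so that 22647 names were in both tables and 11710 of them had a mean of at least 1 in the 4 Snf5 CKO libraries. Of these, 11267 were autosomal by their locus, 435 X-linked and 7 Y-linked. All embryos were at E15.5 and carried the Oct4-EGFP transgene, whose fluorescence was used to sort the germ cells. Snf5 CKO embryos were Snf5 fx/Δ with TNAP-Cre, that is, 1 floxed and 1 already deleted Snf5 allele together with a Cre inserted into the Alpl gene, which is active in primordial germ cells (PGCs). Control germ cells were a mixture of Snf5 fx/+, Snf5 fx/Δ and Snf5 fx/+ with TNAP-Cre. The labels give the strain as C57BL/6, whereas the methods describe a mixed background of C57BL/6, 129/Sv and ICR. Cells of several embryos were pooled in some libraries, and SNF5 is kept in some germ cells of Snf5 CKO gonads.

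SNF5, listed under the symbol Smarcb1, is a core subunit of the SWI/SNF complexes, which use ATP to move nucleosomes. At E15.5 female germ cells are normally in the prophase of meiosis, which STRA8 and BMP-induced factors start, and they have silenced the pluripotency genes of PGCs. Male germ cells at that age are normally arrested in the mitotic cycle as prospermatogonia, in which NANOS2 represses the meiotic programme and de novo DNA methylation begins, after a period of Nodal signaling inside the germ cells.

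The values are FPKM, fragments scaled by transcript length and by the mapped fragments of the library, so levels may be compared between genes. Because the authors quantified ovaries and testes in separate runs, each library was rescaled to the same sum over the matched names, and a level below means this rescaled FPKM. A sex difference below means the ovary mean minus the testis mean of log2(rescaled FPKM + 1), a scale that understates the difference of genes with low levels. No p was given for a level set between the sexes, since sex and quantification run cannot be told apart. A gene was called higher in one sex when its sex difference was at least 1 in size and both libraries of that sex lay above both of the other. The change of the sex difference from control to Snf5 CKO does not depend on a factor that one run gives to a gene, and it was tested with limma across all 8 libraries. A gene was called narrower or wider, for the size of its sex difference whatever its sign, when this change was at least 1 in size with a Benjamini-Hochberg adjusted p under 0.05 over all 12425 genes fitted. The p belongs to the signed change, and whether the size itself differed was not tested, so a gene whose sex difference reversed may also be called narrower or wider. With 2 libraries a group, a p measures the spread between these libraries. An exact two-sided permutation test of 1 gene, 2 libraries against 2, could not go below p = 0.333. That bound is for a comparison of 2 groups and not for the change tested across all 8 libraries.

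Smarcb1 (chromosome 10, 75896769 to 75921614 of mm10) was at 7.12 and 3.42 in the Snf5 CKO ovary libraries and at 13.6 and 10.2 in the Snf5 CKO testis libraries, against 36.7 and 32.3 in control ovary and 225 and 215 in control testis. All 4 Snf5 CKO libraries were thus below all 4 control libraries, although these values cover the whole gene and not the deleted exon alone. Its sex difference was -1.09 in Snf5 CKO and -2.64 in control, a change of 1.55 (limma, standard error 0.48, adjusted p = 0.038). That call held in 11 of 20 alternatives, and it was lost with a pseudocount of 0.1, with no filter, with rows of the same locus, and without female control replicate 1 or 2, female Snf5 CKO replicate 1, male control replicate 1 or 2 or male Snf5 CKO replicate 2 (adjusted p = 0.076 to 0.15 with 1 library left out). Of the 17 SWI/SNF subunits listed, Smarcb1 and 1 other were called in Snf5 CKO, where 16.5% of autosomal genes were called in either direction. The other was the ATPase gene Smarca4, with 138 and 120 in ovary and 81.8 and 46.2 in testis. Among the libraries, the 10 most abundant matched names held 26.4% of the FPKM in male Snf5 CKO replicate 2 and between 12.7% and 15.2% elsewhere. Without counts in the tables, how many fragments each library held is unknown. From the steps of low values, Snf5 CKO replicate 2 was 1.96 times as deep as replicate 1 in ovary and 1.23 times in testis, with 46.6% and 55.7% of the low loci on such steps.

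The labelled cell type was checked against marker genes. Of the 7 germ cell markers listed, the PGC genes Pou5f1 and Dppa3 and the germ cell genes Dazl and Ddx4 were at 239 or more in every Snf5 CKO library. Nanog and Tfap2c were lower, at 47.2 or more. Stra8 was at 451 and 456 in Snf5 CKO ovary and at 5.14 and 9.93 in Snf5 CKO testis. The promoter of Pou5f1 also drives the sorting transgene, so that gene is no independent check. Markers of Sertoli cells, the supporting cells of the testis, summed over the 8 genes listed, reached 962 and 935 in the Snf5 CKO testis libraries and 19.07 and 17.3 in Snf5 CKO ovary, against 224 and 142 in control testis and 4.71 and 7.97 in control ovary. The defining marker Amh, which encodes anti-Müllerian hormone, was at 109 and 121 in Snf5 CKO testis and at 0.124 and 0.0173 in Snf5 CKO ovary, and Sox9, which specifies Sertoli cells, at 17.3 and 11.5 and at 0.198 and 0.167. Of the 8 Sertoli genes, 7 were called higher in Snf5 CKO testis and 6 of the 7 fitted were called wider, beside 7.62% and 3.33% of autosomal genes. These markers therefore moved with sex and with genotype, and their part in the genes higher in testis was not tested. Pre-granulosa markers, of the supporting cells of the ovary, summed over 8 genes to 55.9 and 43.7 in Snf5 CKO ovary and to 51.4 and 37.0 in Snf5 CKO testis. Of the 7 that passed the filter, 5 were called higher in ovary and 1 in testis, beside 8.88% and 7.62% of autosomal genes. The 5 included Foxl2, at 2.81 and 2.86 against 0.163 and 0.0248, and Fst, at 14.0 and 10.2 against 2.12 and 2.34. The 1 higher in testis was the receptor gene Amhr2, at 38.9 and 27.5 against 10.9 and 11.1. Markers of Leydig cells, which make androgens, summed to at most 13.9 in Snf5 CKO libraries, with the 2 called, the steroidogenic enzyme genes Cyp17a1 and Cyp11a1, at most at 4.22 and 3.85. Blood and endothelial markers, with 3 of 7 matched, summed to 40.9 and 27.2 in Snf5 CKO ovary and to 14.6 and 6.47 in Snf5 CKO testis. In control they summed to 6.62 and 5.46 in ovary and to 13.5 and 9.16 in testis. Only 1 of them passed the filter, and it was called higher in Snf5 CKO ovary and wider. Stromal markers summed to at most 6.30 in Snf5 CKO libraries. In bulk samples, fewer cells of a type and less RNA per cell cannot be told apart.

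Ovarian and testicular germ cells were more alike in Snf5 CKO than in control. Pearson's r of log2 levels across the 11267 autosomal genes, which are not independent replicates, was between 0.881 and 0.908 for the 4 pairs of a Snf5 CKO ovary with a Snf5 CKO testis library, against 0.743 to 0.771 for control pairs and 0.963 to 0.980 for the 2 libraries of a group. The median size of the sex difference of these genes was 0.42 in Snf5 CKO and 0.96 in control. In Snf5 CKO, 1000 of them (8.88%) were called higher in ovary and 859 (7.62%) higher in testis, whereas over the 11997 genes that passed the same filter in control these were 2858 (23.8%) and 3364 (28%), together 51.9% against 16.5% in Snf5 CKO. By the tested change, 3085 of 11922 autosomal genes (25.9%) had a narrower sex difference in Snf5 CKO and 397 (3.33%) a wider one. With the replicate number as a block, 4539 were narrower and 662 wider.

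The count of genes higher in ovary was 2187 without male Snf5 CKO replicate 1 and 1555 without female Snf5 CKO replicate 2, and the narrower count was 1791, 2052, 1865 and 1955 without female control replicate 1, female control replicate 2, female Snf5 CKO replicate 1 and male control replicate 1. For the wider count the lowest values were 219, 223, 221 and 263, without female control replicate 1, female control replicate 2, female Snf5 CKO replicate 1 and male control replicate 2. The balance of the directions depended on the scaling: genes higher in ovary made up 53.8% of the Snf5 CKO calls as scaled here, 42.6% with median-of-ratios scaling, 45.8% with a sum that left out the 10 most abundant names and 33.4% with FPKM as deposited, since the median autosomal sex difference was 0.17, 0.02, 0.06 and -0.09. Single libraries shifted this median further, to 0.45 without male Snf5 CKO replicate 1 and to -0.12 without male Snf5 CKO replicate 2. A sex difference within these shifts of the median has therefore no direction of its own.

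Among the 10758 autosomal genes that passed the filter in both genotypes, 582 were called higher in ovary in control and in Snf5 CKO, which is 22.4% of the 2596 control calls and 62.6% of the 929 Snf5 CKO calls. Higher in testis in both were 540 genes, 19.5% of the 2773 control calls and 74% of the 730 Snf5 CKO calls. Genes called on opposite sides were fewer, with 72 called higher in testis in control and in ovary in Snf5 CKO, and 19 the other way. The plot of the sex difference in control against that in Snf5 CKO shows most genes closer to 0 on the Snf5 CKO axis.

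**Figure D1:**
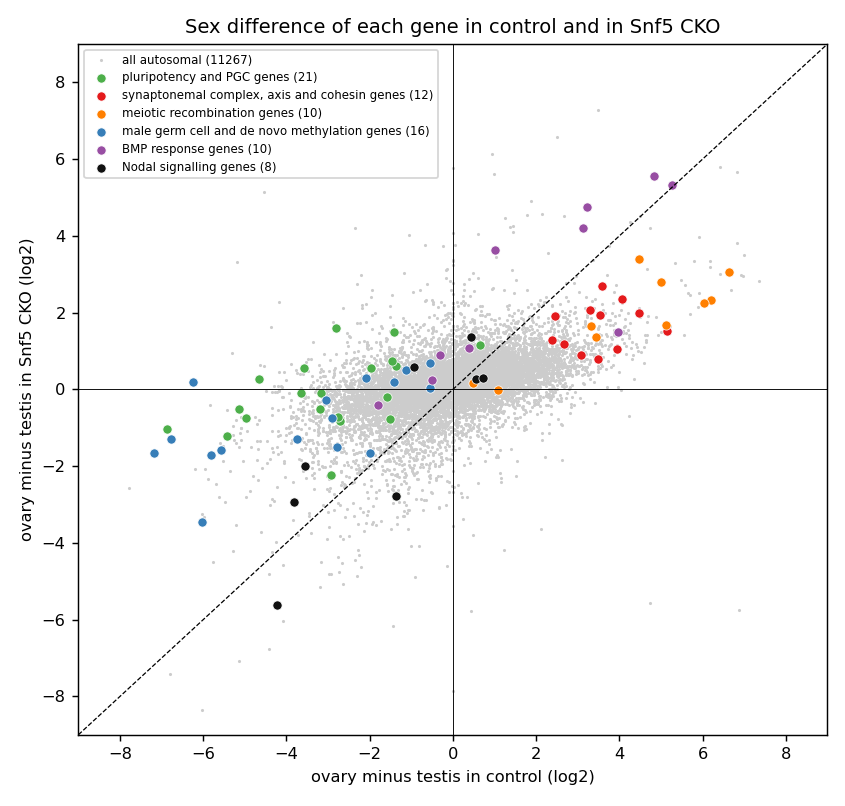
Each point is 1 of the 11267 autosomal genes with a mean of at least 1 in Snf5 CKO, plotted by its ovary minus testis difference of log2(rescaled FPKM + 1) in control (x) and in Snf5 CKO (y), with the members of 6 lists in color and the dashed line marking equal differences, and Cmss1 lies outside the axes. Most list members lie nearer to 0 on the y than on the x axis, whereas several BMP response and Nodal signaling genes lie beyond the dashed line.

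Of the regulators of meiotic entry, Stra8 and Rec8 had a sex difference in Snf5 CKO whose change from control did not pass the test, whereas that of Zglp1 was wider. Of the 7 genes listed, 5 were matched and 4 were called higher in Snf5 CKO ovary, beside 8.88% of autosomal genes. Gm4969, also named Meiosin, and Meioc were not matched by name, so nothing is said of them here and the list median leaves them out. The list median was 2.20 in Snf5 CKO and 2.17 in control, beside 0.17 and -0.03 over all autosomal genes. Stra8, which the female germ cell needs to begin meiosis, was at 451 and 456 in Snf5 CKO ovary and at 5.14 and 9.93 in Snf5 CKO testis, a 60.2-fold ratio of the means. These ovary levels lay within the control ovary levels of 353 and 568, and the change of the sex difference was -0.62 (limma, standard error 0.49, adjusted p = 0.37). Rec8, encoding the meiotic cohesin subunit that holds sister chromatids together, was at 186 and 135 against 36.4 and 31.1, above both control ovary libraries (43.1 and 68.1) and both control testis libraries (11.5 and 11.04). Its sex difference of 2.20 was 2.17 in control, with a change of 0.03 (standard error 0.43, adjusted p = 0.96). Zglp1, a BMP-induced regulator of oogenic fate, was at 71.9 and 56.3 in Snf5 CKO ovary and at 10.8 and 13.1 in Snf5 CKO testis, whereas control ovary, at 25.7 and 48.1, lay just below control testis, at 49.98 and 50.6. Its sex difference was called wider, from -0.50 to 2.32 (change 2.83, standard error 0.47, adjusted p = 0.0031). Ythdc2, whose product binds RNA during the switch to meiosis, was at 16.6 and 9.99 against 4.998 and 2.01, and at 39.5 and 35.4 in control ovary against 4.22 and 2.46 in control testis. Its sex difference was 1.71 in Snf5 CKO and 3.17 in control, a change of -1.46. This did not pass in the main fit (limma, adjusted p = 0.090) and passed with the replicate block (adjusted p = 0.00078). It also passed with median-of-ratios scaling, with FPKM as deposited and without male Snf5 CKO replicate 2. Dazl, an RNA-binding protein gene of germ cells of both sexes, overlapped, with 1058 and 872 in ovary and 1552 and 797 in testis.

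The 300-base promoters (250 bases before to 50 after the RefSeq transcript start, GRCm38.p6) of Stra8, Rec8 and Sycp3 show a gene needed to begin meiosis beside 2 genes of the meiotic chromosome axis. In none of them was the change of the sex difference called. Capitals mark CACGTG, the E-box read by MAX and its partners, and TCCCGC, the core that E2F proteins read, on either strand (GCGGGA on the other), and the motifs do not overlap. Stra8 (chr6:34920698-34920997, plus strand) holds neither, Rec8 (chr14:55617916-55618215, plus strand) holds 1 TCCCGC, and Sycp3 (chr10:88459337-88459636, plus strand) holds 1 TCCCGC and 2 CACGTG. The direct repeats that retinoic acid receptors read, DR2 and DR5, were searched as exact letters on both strands. They had no match in any of the 8410 autosomal genes that passed the filter and had a promoter given. A search for exact letters misses variants of these repeats, so it cannot show that such elements are absent.
Stra8: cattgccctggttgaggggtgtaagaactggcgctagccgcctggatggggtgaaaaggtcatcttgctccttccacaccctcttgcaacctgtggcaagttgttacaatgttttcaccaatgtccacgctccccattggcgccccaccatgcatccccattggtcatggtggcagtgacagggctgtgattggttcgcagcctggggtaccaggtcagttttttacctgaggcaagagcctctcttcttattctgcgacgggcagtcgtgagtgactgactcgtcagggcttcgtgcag
Rec8: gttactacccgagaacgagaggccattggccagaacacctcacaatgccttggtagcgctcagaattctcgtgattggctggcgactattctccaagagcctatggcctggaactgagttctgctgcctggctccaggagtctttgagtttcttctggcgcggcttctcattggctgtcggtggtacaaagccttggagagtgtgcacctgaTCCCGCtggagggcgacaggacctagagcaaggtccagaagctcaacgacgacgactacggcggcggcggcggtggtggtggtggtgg
Sycp3: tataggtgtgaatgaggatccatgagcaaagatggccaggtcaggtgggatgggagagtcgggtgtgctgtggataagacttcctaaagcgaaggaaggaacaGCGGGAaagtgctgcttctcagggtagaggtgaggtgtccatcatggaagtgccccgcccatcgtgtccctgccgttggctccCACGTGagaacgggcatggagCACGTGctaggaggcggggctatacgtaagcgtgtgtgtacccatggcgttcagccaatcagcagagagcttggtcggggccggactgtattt
A promoter was given for 8410 of the 11267 autosomal genes, of which 12% held CACGTG and 41.8% TCCCGC. Among the genes called higher in Snf5 CKO ovary, 737 of the 1000 had one, with 9.36% and 46.4%, and among those called higher in testis 612 of 859, with 10.5% and 34.3%. Of the 12 synaptonemal complex, axis and cohesin genes, 6 held CACGTG and 7 TCCCGC, and of the 8 recombination genes with a promoter, 0 and 5 did.

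Genes of the synaptonemal complex, chromosome axis and cohesin were higher in Snf5 CKO ovary throughout. Both ovary libraries lay above both testis libraries for all 12 listed genes, where 28% of autosomal genes did so, and 10 were called. The list median was 1.72, against 3.52 in control, and 8 of the 12 were called narrower, beside 25.9% of autosomal genes. Sycp3, which builds the lateral element of the synaptonemal complex, was at 303 and 348 in Snf5 CKO ovary and at 51.3 and 46.4 in Snf5 CKO testis. In control it was at 4193 and 3535 in ovary and 302 and 338 in testis, so that Snf5 CKO ovary stood at the level of control testis, and the change of its sex difference was -0.88 (standard error 0.30, adjusted p = 0.056). Sycp1, the transverse filament that joins the homologs, was at 165 and 138 against 31.9 and 26.3, with a sex difference of 2.34 in Snf5 CKO and 4.06 in control (change -1.72, standard error 0.35, adjusted p = 0.0077). The central element gene Syce3 was at 103 and 159 against 33.9 and 56.8, and its sex difference fell from 5.14 to 1.52. Smc1b, a meiotic cohesin subunit, was at 142 and 133 against 40.0 and 29.1, and the kleisin gene Rad21l at 3.35 and 6.19 against 0.392 and 0.554. Hormad1, an axis protein that promotes double-strand breaks, was at 270 and 267 against 128 and 110. The 4 last named were all called narrower, with changes from -3.62 to -1.49. The ovary to testis ratio of Rad21l was 10.1 in Snf5 CKO and 13.0 in control, and its call held in 12 of 19 alternatives. It was lost with a pseudocount of 0.1 (limma, adjusted p = 0.40) and with 6 of the libraries left out in turn.

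Recombination genes had a similar pattern. Of the 16 listed, 11 were matched, 9 were called higher in Snf5 CKO ovary and none in testis, beside 8.88% and 7.62% of autosomal genes. Narrower were 7 of the 11, beside 25.9% of autosomal genes, with a median of 1.67 in Snf5 CKO and 4.47 in control. Prdm9, the histone methyltransferase that places the breaks, was at 16.8 and 15.8 in ovary and 1.56 and 0.683 in testis. In control ovary it was at 351 and 221 and in control testis at 2.15 and 1.55, and its sex difference narrowed with a change of -3.56 (standard error 0.49, adjusted p = 0.0014). Spo11, which cuts the DNA, was at 13.8 and 14.9 against 5.77 and 4.24, and Dmc1, the meiotic recombinase, at 53.1 and 49.0 against 7.79 and 5.25. Spata22, which acts with MEIOB on single-stranded DNA, had 21.3 and 23.0 against 1.34 and 1.03, an 18.7-fold ratio. Its change of -1.06 did not pass in the main fit (adjusted p = 0.096) but passed with the replicate block (adjusted p = 0.0042). It also passed with median-of-ratios scaling and with FPKM as deposited. The 2 genes whose libraries overlapped were Hsf2bp, with 90.1 and 71.2 in ovary and 109 and 60.3 in testis, and the mismatch repair gene Mlh3, with 11.7 and 7.42 and with 13.6 and 4.82. The change of Hsf2bp did not pass in the main fit (limma, adjusted p = 0.12) and passed with the replicate block (adjusted p = 0.0013). It also passed with median-of-ratios scaling, with FPKM as deposited and without male Snf5 CKO replicate 2.

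BMP response genes had the widest median sex difference on the ovary side among the lists. Of the 10 listed, all of which passed the filter, 7 were called higher in Snf5 CKO ovary and none in testis, beside 8.88% and 7.62% of autosomal genes. The median sex difference was 2.57, against 2.07 in control. Id1, Id2 and Id3 encode inhibitors of basic helix-loop-helix factors and are direct BMP targets. Id1 was at 443 and 379 in Snf5 CKO ovary and at 7.81 and 7.55 in Snf5 CKO testis, a 53.5-fold ratio, and at 167 and 166 and at 5.66 and 4.24 in control ovary and testis. Id2 was at 174 and 152 against 10.1 and 6.12, and neither change passed the test (0.74 and 1.08, adjusted p = 0.15 and 0.099), although that of Id2 passed with the replicate block (adjusted p = 0.0051). That of Id2 also passed without male Snf5 CKO replicate 1. Id3 was at 1094 and 989 against 374 and 356 and at 18.7 and 20.1 in control testis, so that its sex difference was called narrower, 1.51 from 3.96 (change -2.45, standard error 0.38, adjusted p = 0.0022).

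The homeobox genes Msx1 and Msx2 act downstream of BMP in the ovary. Msx1 was at 138 and 165 in Snf5 CKO ovary and at 4.84 and 1.45 in Snf5 CKO testis, a 48.1-fold ratio. Msx2 was at 100.1 and 80.0 against 7.42 and 5.37 and at 11.5 and 13.4 in control ovary, and its sex difference was called wider, 3.63 from 1.02 (change 2.61, standard error 0.41, adjusted p = 0.0024). Gata2, a zinc finger factor, was at 97.5 and 74.1 against 3.38 and 1.29, a 36.7-fold ratio. Its change of 1.54 did not pass in the main fit (standard error 0.52, adjusted p = 0.052), whereas with the replicate block it passed (adjusted p = 0.00068). It also passed with each of the other scalings, with limma without trend and without male Snf5 CKO replicate 1. For all 6 named genes, both Snf5 CKO ovary libraries lay above both control ovary libraries.

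Among genes of the retinoic acid pathway, the other signal for meiotic entry, Crabp1 and Cyp26a1 had a wider sex difference in Snf5 CKO than in control. That of Crabp2 reversed. Of the 11 listed, 7 passed the filter, and 5 of them were called higher in Snf5 CKO ovary and 1 in testis, beside 8.88% and 7.62% of autosomal genes. Of the 6 fitted, 4 were called wider and 1 narrower, beside 3.33% and 25.9% of autosomal genes. Crabp1 and Crabp2 encode proteins that bind retinoic acid in the cytoplasm. Crabp1 was at 125 and 93.1 in Snf5 CKO ovary and at 9.35 and 5.26 in Snf5 CKO testis, whereas control ovary, at 51.8 and 72.3, overlapped control testis, at 52.2 and 66.1 (change of the sex difference 3.70, standard error 0.48, adjusted p = 0.0011). Crabp2 was at 24.2 and 17.5 against 2.41 and 2.07, and its sex difference turned from -2.31 in control to 2.74. Cyp26a1, an enzyme that degrades retinoic acid, was at 6.49 and 6.36 against 0.310 and 0.731, and at 0.313 or less in every control library. Rarg, a retinoic acid receptor, was at 15.8 and 13.7 against 6.01 and 4.13, where control testis was the higher, and was the 1 called narrower. Dhrs3, which reduces retinal, was low in both, at 2.81 and 1.44 against 0.336 and 0.304, and did not pass the filter of the fit. Stra6, the retinol uptake receptor, was the 1 called higher in testis, at 3.69 and 2.37 against 0.380 and 0.218, and its wider call held in 6 of 15 alternatives, being lost without any 1 of the 4 control libraries or the 2 female Snf5 CKO libraries (adjusted p = 0.051 to 0.14).

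**Figure D2:**
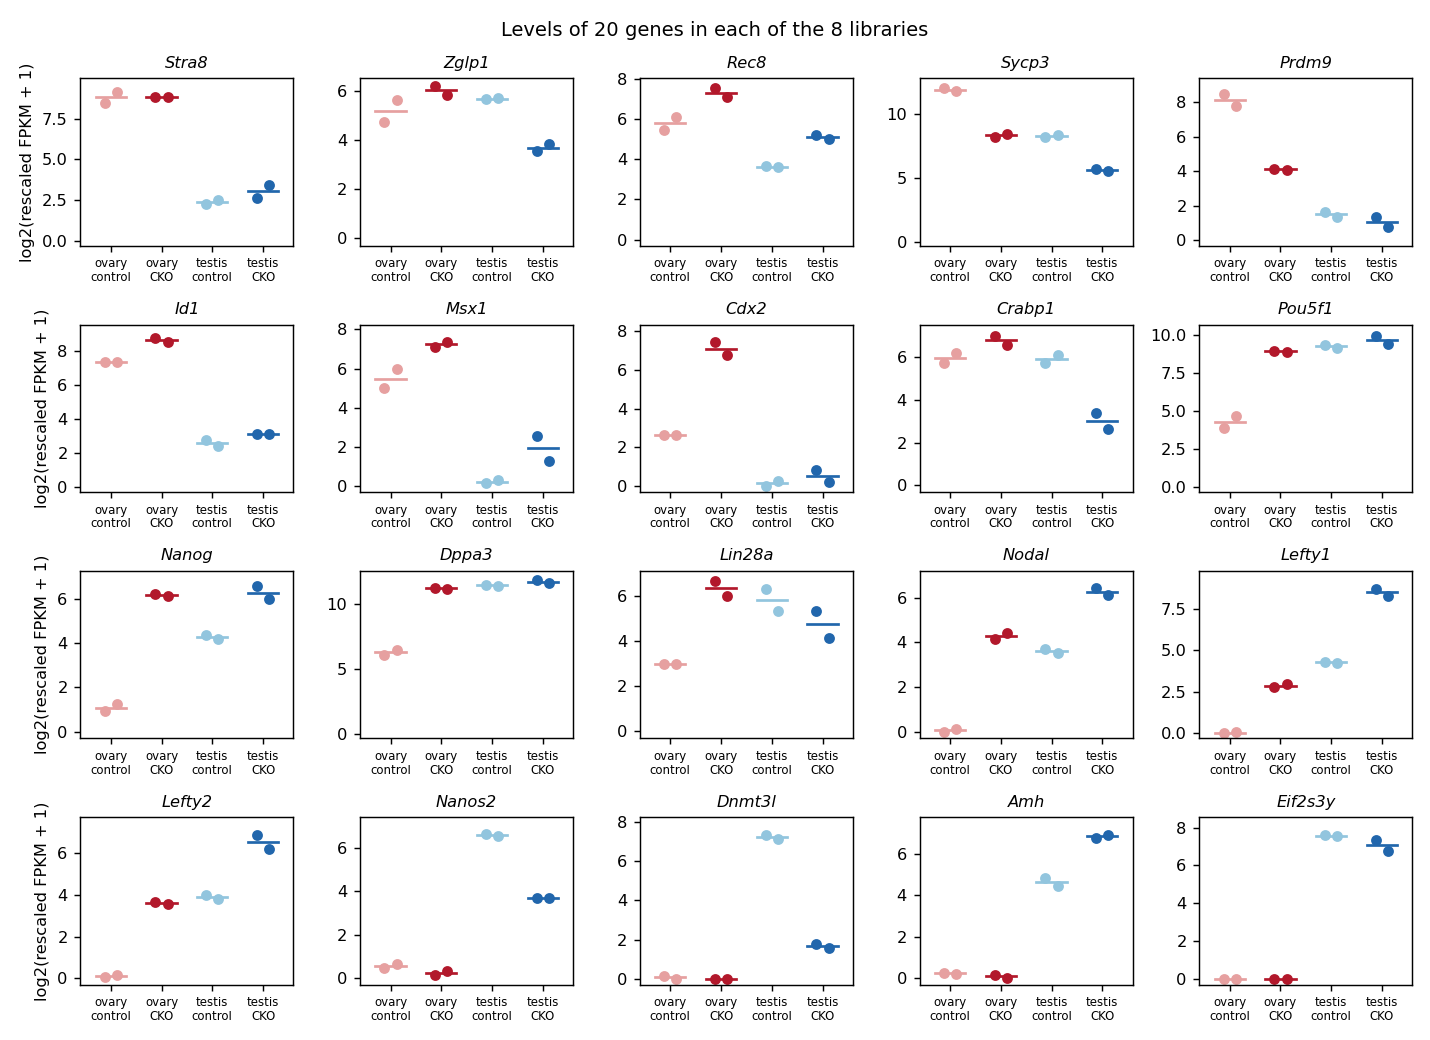
Levels of selected genes, as log2(rescaled FPKM + 1) on the y axis, in each of the 8 libraries grouped on the x axis by sex and genotype, where points are libraries (replicate 1 left, replicate 2 right) and bars are the means of 2. Stra8, Id1, Msx1 and Cdx2 are high in both Snf5 CKO ovary libraries and low in both Snf5 CKO testis libraries, Pou5f1, Nanog and Dppa3 differ less between the sexes in Snf5 CKO than in control, and Lefty1, Lefty2 and Nodal are highest in Snf5 CKO testis.

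Nodal pathway genes were the counterpart in testis. Of the 9 listed genes reported here, 8 passed the filter, and 4 were called higher in Snf5 CKO testis and 1 in ovary, beside 7.62% and 8.88% of autosomal genes. The median sex difference was -0.09 in Snf5 CKO, which is within the shift that scaling gives, and -0.95 in control. Of the 8 fitted, 2 were called narrower and 1 wider, beside 25.9% and 3.33% of autosomal genes. Nodal, the ligand, was at 84.7 and 68.8 in Snf5 CKO testis and at 16.6 and 20.6 in Snf5 CKO ovary. It was at 12.1 and 10.3 in control testis and listed at 0 and 0.0879 in control ovary, and its sex difference was narrower in Snf5 CKO, -1.99 from -3.54 (change 1.56, standard error 0.40, adjusted p = 0.020). This call held in 12 of 19 alternatives and was lost with FPKM as deposited and without any 1 of the 4 control libraries or the 2 female Snf5 CKO libraries (adjusted p = 0.050 to 0.089). Its co-receptor gene Tdgf1 was at 25.9 and 20.4 against 3.54 and 1.66, and its change passed only with the replicate block (adjusted p = 0.0021) and in 3 other alternatives. Lefty1 and Lefty2 encode secreted inhibitors of Nodal that are also its targets. Lefty1 was at 417 and 303 in Snf5 CKO testis and at 5.79 and 6.67 in Snf5 CKO ovary, a 57.8-fold ratio, and Lefty2 at 118 and 72.8 against 11.7 and 10.9. The change of Lefty1 was -1.40 (standard error 0.40, adjusted p = 0.030), a change that turned to 1.41 and was no longer called with a pseudocount of 0.1, with the control ovary listed at 0 and 0.0484. It held in 11 of 20 alternatives, and was also lost with rows of the same locus and without any 1 of the libraries other than male Snf5 CKO replicate 2 (adjusted p = 0.053 to 0.12).

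Foxh1, which carries SMAD2 to Nodal targets, went the other way, at 125 and 144 in Snf5 CKO ovary against 60.5 and 44.2 in Snf5 CKO testis. For Nodal, Lefty1, Lefty2 and Tdgf1, both Snf5 CKO testis libraries were above all 6 other libraries. The Sertoli cell markers were also highest in the same 2 libraries, and their part in this was not tested.

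Genes of the male germ cell and of de novo DNA methylation were higher in Snf5 CKO testis for 8 of the 16 listed and in ovary for none, but the sex difference was narrower than in control for 11 of the 16 and wider for 1 (median -1.02 against -2.98). Among autosomal genes, 7.62% were higher in testis and 8.88% in ovary, and 25.9% were narrower and 3.33% wider. Nanos2 was at 11.8 and 12.03 in Snf5 CKO testis and at 0.0982 and 0.246 in Snf5 CKO ovary, whereas control testis was at 97.8 and 92.5. Its sex difference was -3.46 in Snf5 CKO and -6.03 in control (change 2.56, standard error 0.37, adjusted p = 0.0017). Dnmt3l, the cofactor of de novo methylation, was at 2.39 and 1.97 in Snf5 CKO testis and listed at 0 in both Snf5 CKO ovary libraries, against 162 and 139 in control testis. The methyltransferase genes were both called higher in Snf5 CKO testis, Dnmt3a with 54.8 and 27.1 against 14.0 and 8.65 and Dnmt3b with 66.2 and 40.8 against 17.7 and 14.0. Dnmt3a was called narrower (change 4.09, adjusted p = 0.0013), and Dnmt3b was not (change 0.34, adjusted p = 0.66). Piwil4, of the piRNA pathway, was at 4.93 and 3.57 against 1.38 and 0.284 and at 266 and 169 in control testis.

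Nanos3 and Dnd1 protect PGCs from loss. Nanos3 was at 37.4 and 54.1 in Snf5 CKO testis and at 16.6 and 18.8 in Snf5 CKO ovary, and its sex difference of -1.30 was -6.77 in control. Dnd1 was at 218 and 206 in Snf5 CKO testis and at 237 and 247 in Snf5 CKO ovary, against 749 and 937 in control testis and 7.77 and 12.7 in control ovary, and its change of 6.45 was the largest of the list (standard error 0.38, adjusted p = 0.00020). Ddx4, a germ cell helicase gene of both sexes, overlapped, with 419 and 280 in ovary and 467 and 239 in testis.

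Most pluripotency and PGC genes had a narrower sex difference in Snf5 CKO than in control. Of 22 listed, 21 passed the filter, and 15 of the 21 were called narrower and 1 wider, beside 25.9% and 3.33% of autosomal genes. In Snf5 CKO 3 were called higher in ovary and 4 in testis, beside 8.88% and 7.62% of autosomal genes, and both ovary libraries lay above both testis libraries for 7 and below them for 9, beside 28% and 18.6%, with a median sex difference of -0.15 in Snf5 CKO and -2.79 in control. Pou5f1, the pluripotency factor whose promoter also drives the sorting transgene, was at 496 and 460 in Snf5 CKO ovary and at 966 and 655 in Snf5 CKO testis. Control ovary was at 13.6 and 24.2 and control testis at 638 and 561, so the sex difference was -0.74 from -4.97 (change 4.23, standard error 0.44, adjusted p = 0.00047). The homeobox gene Nanog was at 73.8 and 68.6 in ovary and 94.0 and 62.0 in testis, and these libraries overlapped. Tfap2c, a PGC specification factor, was at 113 and 85.7 against 85.6 and 47.2, and Dppa3, which guards methylation in the early embryo, at 2362 and 2256 against 3543 and 3010. All 4 were called narrower.

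The 3 called higher in Snf5 CKO ovary were Lin28a, an RNA-binding regulator of let-7 maturation, at 99.6 and 63.1 against 39.2 and 16.7, Esrrb, a nuclear receptor gene of the naive network, at 13.7 and 11.4 against 5.81 and 2.37, and the receptor tyrosine kinase gene Kit at 107 and 64.6 against 64.0 and 21.0. Lin28a and Esrrb were higher in testis in control. Of the 4 higher in Snf5 CKO testis, Tdgf1 is given above, Utf1 was at 352 and 303 against 122 and 163, Dppa4 at 221 and 167 against 103 and 84.2, and Dppa5a at 12833 and 10506 against 2558 and 2409. Dppa5a was at 1821 and 1794 in control testis, below both Snf5 CKO sexes.

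**Figure D3:**
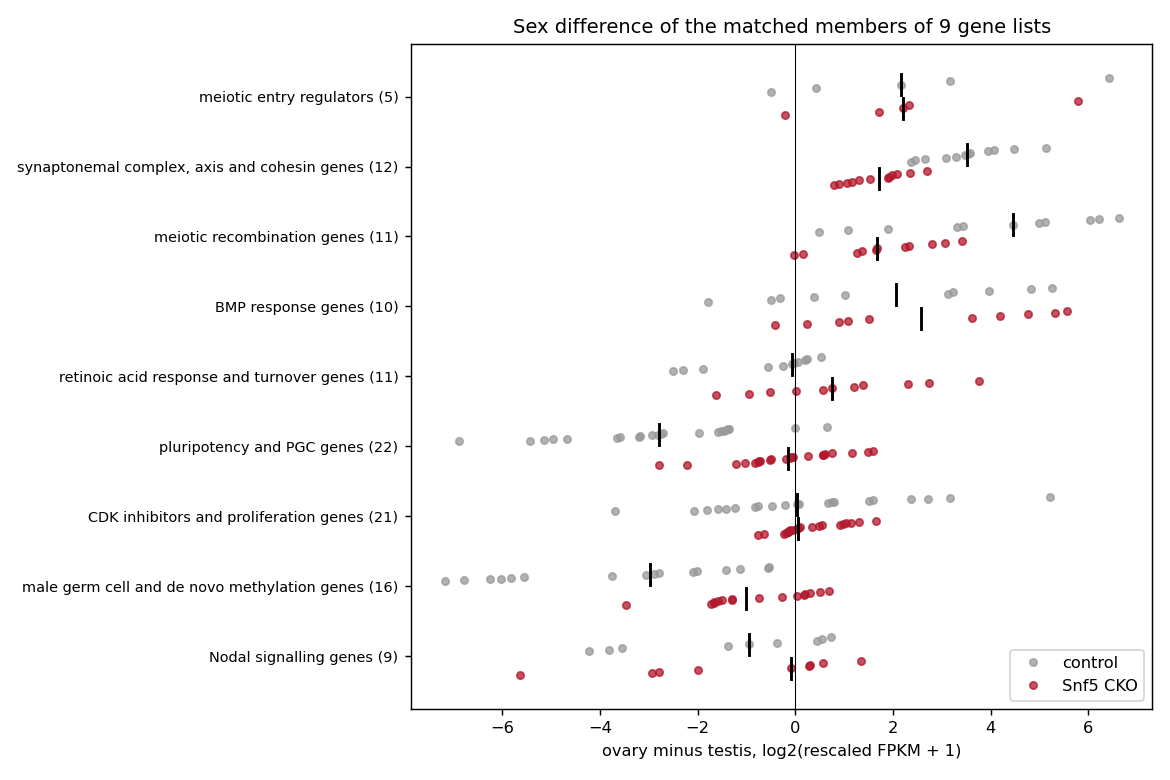
Sex difference (ovary minus testis, log2(rescaled FPKM + 1), x axis) of every matched member of 9 gene lists (y axis, number of members in parentheses) in control (grey) and Snf5 CKO (red), with a black bar at each median. The medians of the synaptonemal complex, recombination, PGC and male germ cell lists lie nearer to 0 in Snf5 CKO, and those of the BMP and retinoic acid lists lie farther to the ovary side.

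Oocyte genes went both ways. Of the 12 listed, 7 passed the filter, 2 were called higher in Snf5 CKO ovary and 3 in testis, beside 8.88% and 7.62% of autosomal genes. Figla, which switches on the zona pellucida genes, was at 18.3 and 30.9 against 1.94 and 3.84, with 229 and 308 in control ovary, and Ybx2, an RNA-binding protein gene, at 32.5 and 25.5 against 8.88 and 6.43. Lhx8, a homeobox gene of the early oocyte, was at 23.5 and 14.4 in Snf5 CKO testis and at 0.398 and 0.752 in Snf5 CKO ovary, the reverse of control, in which ovary was at 7.66 and 6.30 and testis at 0.767 and 0.898. The change of -5.75 was called wider (standard error 0.43, adjusted p = 0.00020). Ooep, a maternal effect gene, was at 339 and 281 in testis against 17.03 and 20.5, and at 58.5 and 66.9 in control testis against 2.27 and 2.35, with a like sex difference in both (-3.98 and -4.26). Sohlh1 was at 2.24 and 2.17 against 0.224 and 0.210, with 81.7 and 79.9 in control testis.

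Of 21 matched CDK inhibitor and proliferation genes, 8 had a sex difference called narrower in Snf5 CKO than in control, beside 25.9% of autosomal genes. In Snf5 CKO 4 of the 21 were called higher in ovary and none in testis, a share near the 16.5% of autosomal genes called in either direction. Mki67, a marker of cycling cells, was at 35.6 and 18.5 in ovary and 27.2 and 11.8 in testis, whereas control testis was at 4.01 and 2.32 (change -2.67, standard error 0.68, adjusted p = 0.019). The call was lost without female control replicate 1, female Snf5 CKO replicate 2 or male control replicate 2 (adjusted p = 0.051 to 0.083). Ccnb1, cyclin B1, was at 416 and 346 against 527 and 324, and at 21.4 and 16.95 in control ovary. The 4 called were the cyclin genes Ccne2, at 21.5 and 18.6 against 7.24 and 4.37, and Ccnd3, at 204 and 198 against 117 and 80.5, and the CDK inhibitor genes Cdkn2a, at 8.52 and 5.15 against 2.08 and 2.06, and Cdkn2d, at 241 and 192 against 104 and 89.6.

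Of the 12 p53 targets, 3 were called higher in Snf5 CKO ovary and 1 in testis, beside 8.88% and 7.62% of autosomal genes. The 2 called wider, beside 3.33% of autosomal genes, were Phlda3 and Bbc3. The call of Bbc3 held in 7 of 19 alternatives and was lost with each of the 8 libraries left out (adjusted p = 0.055 to 0.16). Cdkn1a, the CDK inhibitor p21, was at 96.8 and 105 in ovary and 80.2 and 77.2 in testis, with 10.2 or less in every control library. Phlda3, an AKT inhibitor, was at 99.3 and 89.2 against 41.7 and 39.8, the death gene Bbc3 at 23.4 and 26.8 against 11.7 and 11.5, and the receptor gene Eda2r at 16.5 and 10.9 against 5.12 and 3.88. Pmaip1, also a death gene, was at 206 and 99.0 in testis against 5.53 and 2.99 in ovary, as in control (147 and 84.8 against 6.96 and 2.50).

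Among 13 matched imprinted genes, 9 passed the filter. Of these, 3 were called higher in Snf5 CKO ovary and 1 in testis, beside 8.88% and 7.62% of autosomal genes. Phlda2, which restrains placental growth, was at 132 and 144 in ovary and at 0.961 and 1.002 in testis, a 141-fold ratio, and its sex difference was called wider, 6.13 from 0.94 (standard error 0.55, adjusted p = 0.00051). The growth factor gene Igf2 was at 56.3 and 68.3 against 1.75 and 1.70, and was also called wider (change 1.86, adjusted p = 0.011). Its receptor gene Igf2r was at 39.8 and 22.5 against 21.9 and 7.03, and Nnat was the 1 higher in testis, at 8.13 and 8.63 against 4.25 and 3.05.

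The 12 autosomal genes with the widest gap between the nearest libraries of the sexes on the ovary side were Sct, Phlda2, Cdx2, Id1, Stra8, Cdx1, Msx1, Igf2, Lypd4, Dync1i1, Snora7a and Gata2. Sct, the hormone secretin, was at 353 and 472 in Snf5 CKO ovary and at 0.778 and 2.83 in Snf5 CKO testis, with 27.8 and 70.7 in control ovary. The caudal homeobox gene Cdx2 was at 172 and 107 against 0.754 and 0.148, and at 5.31 and 5.26 in control ovary, with a change of the sex difference of 4.08 (standard error 0.48, adjusted p = 0.00073). Cdx1 was at 42.1 and 34.6 against 0.317 and 0.280 (change 3.03, adjusted p = 0.0016). Lypd4 was at 19.4 and 28.5 against 0.0621 and 0.0655, with a sex difference as wide in control (4.53 and 4.49). Dync1i1, a dynein chain gene, was at 41.1 and 44.2 against 1.24 and 0.526. Snora7a, a small nucleolar RNA, was at 70.5 and 16.4 in Snf5 CKO ovary, listed at 0 in Snf5 CKO testis and control ovary, and at 39.3 and 12.4 in control testis.

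On the testis side they included Cmss1, Cst9, Mir6538, Defb19, Ptgds, Amh, Fermt1, Lefty1, Pdlim3, Ak8 and Krtdap. Cst9, Ptgds and Amh were among the Sertoli markers fixed for the check, with Cst9, a cystatin, at 383 and 379 against 0.257 and 0.104 and Ptgds, a prostaglandin D synthase, at 219 and 279 against 0.613 and 1.13. Defb19, a defensin, was at 845 and 1386 against 4.72 and 5.93. Fermt1, a kindlin of integrin adhesion, was at 84.4 and 65.0 in Snf5 CKO testis against 0.0595 and 0.0352 in Snf5 CKO ovary, and at 1.96 and 1.80 in control testis (change -4.71, standard error 0.35, adjusted p = 0.00020). Krtdap was at 549 and 643 against 18.2 and 19.8, and at 1.20 or less in every control library. Ak8, an adenylate kinase gene, was at 152 and 186 against 3.02 and 4.60, and Pdlim3 at 120 and 61.3 against 0.749 and 0. Mir6538 was at 276 and 193 in Snf5 CKO testis and listed at 0 in the 6 other libraries. The row of Cmss1 is unstable, at 38567 and 45633 in Snf5 CKO testis but at 32672 and 0 in the 2 control testis libraries, and at 49.3 and 0 in Snf5 CKO ovary. Its change did not pass in the main fit (limma, adjusted p = 0.33). It passed with the replicate block (adjusted p = 0.020) and without male control replicate 1.

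The 8 genes with the largest called change among those narrower were Morc1, Grhl3, Dnd1, 1700019A02Rik, Mir8102, Dppa4, Dnmt3l and Nanos3, all higher in testis in control. Morc1, a chromatin ATPase gene that silences transposons in male germ cells, was at 94.4 and 88.0 in Snf5 CKO ovary and at 10.1 and 6.56 in Snf5 CKO testis, the reverse of control (9.73 and 3.66 against 333 and 195), with a change of 8.50 (standard error 0.62, adjusted p = 0.00020). Grhl3, a grainyhead factor, likewise turned, at 29.4 and 24.7 against 5.58 and 4.05, from 0.2996 and 0.331 against 27.7 and 18.8 in control. The gene 1700019A02Rik was at 16.9 and 17.6 against 7.81 and 9.30, and Mir8102 was listed at 0 in 3 of the 4 Snf5 CKO libraries and at 8.68 in female Snf5 CKO replicate 2. Among those wider the 8 were Snora7a, Mir6538, Glt1d1, Lhx8, Phlda2, Dnaaf1, Crabp2 and Fermt1. Glt1d1, a glycosyltransferase-like gene, was at 28.7 and 45.5 in Snf5 CKO ovary and at 1.78 and 0.453 in Snf5 CKO testis, and Dnaaf1, a dynein assembly factor gene, at 71.8 and 44.1 against 9.09 and 4.22.

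X-linked genes stood apart from the autosomes. Their median sex difference in Snf5 CKO was 0.59 (quartiles 0.14 and 1.13), and 345 of the 435 were above 0, beside a median of 0.17 (quartiles -0.24 and 0.54) for autosomal genes. In control the same genes had medians of 0.37 and -0.03, so that the X-linked excess was 0.41 there and 0.42 in Snf5 CKO. The excess in Snf5 CKO stayed between 0.40 and 0.49 with each Snf5 CKO library left out, whereas the X-linked median itself went from 0.37 without male Snf5 CKO replicate 2 to 0.88 without male Snf5 CKO replicate 1. Among the 19 autosomes the median lay between 0.073 and 0.25. Within a library, the median level of X-linked genes was 0.827 and 0.832 times the autosomal median in Snf5 CKO ovary and 0.625 and 0.635 times in Snf5 CKO testis, against 0.866 and 0.934 in control ovary and 0.673 and 0.713 in control testis. Of the X-linked genes, 130 (29.9%) were called higher in Snf5 CKO ovary and 28 (6.44%) in testis, together 36.3%, against 36% and 23.7%, together 59.7%, of the 511 that passed the filter in control. Both ovary libraries lay above both testis libraries for 55.4% of them in Snf5 CKO, and both below for 10.8%. By the tested change 150 of 493 (30.4%) were narrower and 28 (5.68%) wider.

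Xist, the RNA that coats the inactive X chromosome, was at 0.437 or less in all 8 libraries. Of the 8 X-linked genes in the list of those with a Y-linked partner and Xist, 7 passed the filter. Called higher in Snf5 CKO ovary were 2, a share near the 29.9% of X-linked genes. They were the histone demethylase gene Kdm6a, at 33.7 and 22.6 against 18.8 and 6.28, and the zinc finger gene Zfx, at 28.8 and 19.3 against 17.1 and 7.10. The change of Kdm6a did not pass in the main fit (limma, adjusted p = 0.070) and passed with the replicate block (adjusted p = 3.6e-05). It also passed with each of the other scalings and without male Snf5 CKO replicate 2. The Y-linked genes Eif2s3y and Ddx3y were at 164 and 107 and at 13.7 and 6.68 in Snf5 CKO testis, and listed at 0 in every ovary library.

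**Figure D4:**
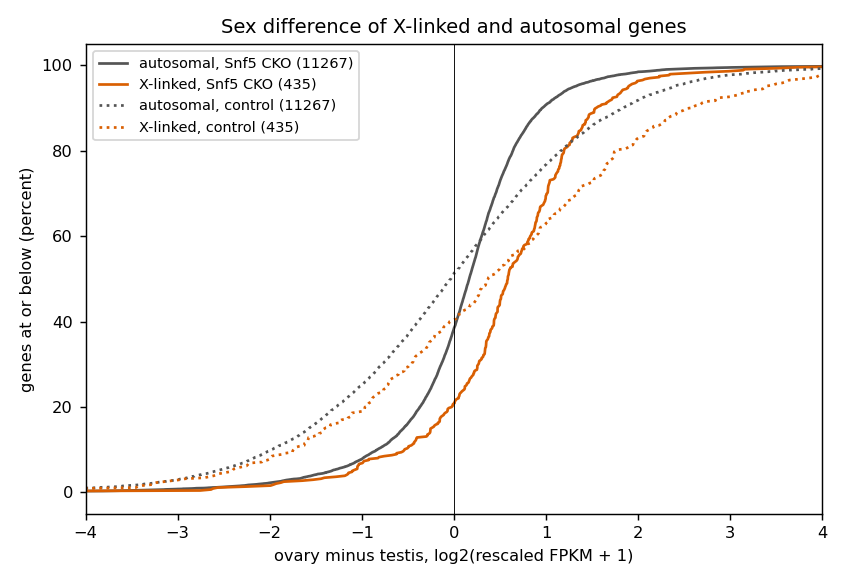
Cumulative percent of genes (y) at or below each sex difference (x, ovary minus testis, log2(rescaled FPKM + 1)), for the 435 X-linked (orange) and 11267 autosomal (grey) genes that passed the filter in Snf5 CKO, in Snf5 CKO (solid) and control (dotted). The solid curves are steeper than the dotted ones, and the solid X-linked curve lies to the right of the solid autosomal one, with medians of 0.59 and 0.17.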

How the data were processed

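Germ cells were sorted by Oct4-EGFP, and RNA-Seq libraries were made with a SMART-Seq v4 kit and Nextera XT. The authors deposited 1 table of FPKM values per sex, made with TopHat and Cufflinks on mm10. The submitters' processing notes name TopHat2 2.2.1 and Cuffdiff 2.1.1, and the annotation version is not given in the sources used here. FPKM, its quantification status and the locus were used, and the deposited confidence bounds were not. Sex and group come from the sample labels.

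Rows were matched by gene name (highest mean row per name), which gave 22647 names, 13417 with the same locus in both tables. Each library was rescaled to a sum of 1000000 over these names, and sex differences were taken on log2(rescaled FPKM + 1) for names with a mean of at least 1. The change of the sex difference was fitted with limma 3.58.1 in R 4.3.3 (lmFit, eBayes with a trend on the mean, 4 residual and 4.96 prior degrees of freedom). The fit was tried beforehand on simulated data, in which libraries varied independently of one another. That trial did not cover the deviations that replicates of the same number share, which are given below. Up to 6 members per list were named, by size or role, with the 12 autosomal genes of each direction with the widest gap between nearest libraries and the 8 of each kind with the largest called change. Lists, members and tests were chosen with earlier results of these data known. Loci without a name, which held 5.46% to 42.1% of the FPKM of a library, were not matched.

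The labels describe the raw data of replicates 1 and 2 in different styles in all groups. The deviations of replicate 2 from replicate 1 correlated across genes at 0.42 to 0.61 over the 6 pairs of groups. The replicate number was therefore treated as a factor that the groups may share, and the labels do not say what it is. The main fit had no block on it, and such a block was an alternative. The others were a pseudocount of 0.1, filters, scalings, rows with the same locus or status OK, the row with the highest Snf5 CKO mean, limma without trend, and each library left out. Promoters were those of RefSeq. A gene that the naming rule would include is not reported here.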

Additional observations from a re-analysis of the deposited data

Results flagged for a closer look

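The effect of the Snf5 deletion differed between ovary and testis, by the limma test of the change of the sex difference (adjusted p under 0.05, change of at least 1 in size), for 70 of the 107 genes named above, of which 40 had a narrower and 30 a wider sex difference in Snf5 CKO. Values are changes on the log2 scale, positive where the ovary rose more, or fell less, than the testis. Many of these genes were named because their change was large, so the count is no share of genes in general. The call held in every alternative run for 49 of the 70. It was lost in more than 5 alternatives for 10, Bbc3, Cyp11a1, Lefty1, Nodal, Pdlim3, Ptgds, Rad21l, Smarcb1, Sox9 and Stra6, mostly with 1 library left out, and in 1 to 3 for Ak8, Cst9, Cyp26a1, Fst, Igf2, Krtdap, Mki67, Nnat, Tfap2c, Ybx2 and Zfx.

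Among the narrower ones, the change was positive for Pou5f1 4.23, Nanog 3.08, Tfap2c 1.98, Dppa3 4.64, Utf1 4.23, Dppa4 5.84, Lin28a 4.41, Sohlh1 4.20, Nanos2 2.56, Nanos3 5.47, Dnmt3l 5.51, Dnmt3a 4.09, Piwil4 3.99, Dnd1 6.45, Nodal 1.56, Rarg 3.88, Ccnd3 2.45, Ccnb1 3.57, Smarcb1 1.55, Nnat 1.87, Cyp17a1 3.12, Cyp11a1 2.49, Morc1 8.50, Grhl3 6.46, 1700019A02Rik 6.26 and Mir8102 6.01. It was negative for Sycp1 -1.72, Syce3 -3.62, Smc1b -2.50, Rad21l -1.62, Hormad1 -1.49, Spo11 -2.07, Prdm9 -3.56, Dmc1 -2.18, Figla -2.85, Ybx2 -1.94, Id3 -2.45, Mki67 -2.67, Ccne2 -3.56 and Zfx -2.38.

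Among the wider ones, the change was positive for Esrrb 2.90, Zglp1 2.83, Msx2 2.61, Cyp26a1 2.06, Crabp1 3.70, Crabp2 5.04, Phlda3 1.84, Bbc3 1.32, Phlda2 5.19, Igf2 1.86, Cdx2 4.08, Cdx1 3.03, Sct 3.81, Snora7a 9.68, Dync1i1 2.41, Fst 2.06, Glt1d1 6.57 and Dnaaf1 5.18. It was negative for Lhx8 -5.75, Lefty1 -1.40, Stra6 -1.07, Amh -2.33, Cst9 -2.31, Sox9 -1.55, Ptgds -1.92, Fermt1 -4.71, Ak8 -1.97, Krtdap -3.98, Mir6538 -7.86 and Pdlim3 -1.96. Several of the last, Amh, Cst9, Sox9 and Ptgds, are Sertoli cell markers.

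Groups of 2 libraries are too small for a test of a library that stands apart from its group.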

How the results depend on the processing

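No called sex difference of a named gene in Snf5 CKO reversed under the alternatives run (1295 values moved by less than the spread between replicates, 142 by more). Uncalled differences changed sign in 17 values of 8 genes, Ddx4, Mlh3, Dnd1, Hsf2bp, Ccnb1, Nanog, Dazl and Mki67. Not all of them were near 0, since that of Mki67 went from 0.50 to -0.08 without male Snf5 CKO replicate 2. For the change of the sex difference of the named genes, 1891 values under an alternative stayed on the same side of the test, 99 no longer passed, 36 newly passed and 1 reversed, Lefty1 with a pseudocount of 0.1 (1.41).

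The count of autosomal genes higher in Snf5 CKO ovary was 530 with FPKM as deposited and 424 with rows of the same locus in both tables, where fewer genes were compared, and 744 to 2187 with each library left out. That of genes higher in testis was 484 with a mean of at least 5 and 448 with the same locus, where fewer genes were compared, and 616 to 1257 with each library left out. Narrower genes numbered 1428 with the same locus and 1791 to 3258 with each library left out, and wider genes 199 with a mean of at least 5, 170 with the same locus and 219 to 511 with each library left out. The X-linked median was 0.44 with median-of-ratios scaling, 0.48 with a sum without the 10 most abundant names, 0.31 with FPKM as deposited, 0.25 with no filter, 0.72 with a mean of at least 5 and 0.37 to 0.88 with each library left out. Its excess over the autosomal median was between 0.20 (no filter) and 0.54 (mean of at least 5). Other causes of these shifts were not tested.

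With the replicate block, the wider count was 662, and the counts higher in ovary (1016) and testis (861) and narrower (4539) were within 1.5 times those without it. The block changed the call of the change for Tdgf1, Ythdc2, Spata22, Hsf2bp, Id2, Gata2, Kdm6a and Cmss1, each of which then passed, and for no other named gene. Each of these also passed in some alternative without the block. The unknown total depth limits what can be said of genes listed at 0.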
